A study of Mus musculus with 2 samples.

Results

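The proteasome is the barrel-shaped protease that degrades ubiquitin-tagged proteins in every cell. Its 20S core particle is built from rings of alpha subunits, which gate the entrance, and rings of beta subunits, which hold the cutting sites. The 19S regulatory particle, made of ATPases and other subunits, sits on the ends of the core, where it binds and unfolds tagged proteins. In leukocytes, and in other cells exposed to interferon gamma, the inducible beta subunits encoded by Psmb8, Psmb9 and Psmb10 replace the constitutive catalytic ones to form the immunoproteasome, and the PA28 activator encoded by Psme1 and Psme2 can replace the 19S particle. These changes favour peptides that are loaded on MHC class I. How the genes of this machinery differed between islets grafted into normoglycemic and into hyperglycemic mice was examined here.

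Islets of wild-type C57BL/6 donors, 50 per recipient, had been grafted beneath the capsule of the left kidney. One recipient was wild type C57BL/6 and normoglycemic, called the WT recipient below, and the other heterozygous Akita and hyperglycemic, called the Akita recipient. The paper gives male sex for its Akita recipients. The Akita allele is a missense mutation of Ins2 that damages the beta cells of the recipient, while the grafted islets carried the wild-type gene in both groups. Grafts were taken at 6 hours, and total RNA of 1 graft sample per group was hybridized to 1 MOE430 2.0 array each, 2 arrays in all. Akita recipients of 50 islets were 10 to 12 weeks old at transplantation in the main experiments, while the age of the WT recipient and the number of mice per sample are not stated in the sources read. With 1 array per group, no difference could be tested, and the effect of blood glucose cannot be told apart from that of the recipient genotype.

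Genes were chosen by symbol, namely those that begin with Psm, a letter from a to g and a digit, on probe sets that the platform annotation assigns to 1 gene. This gave 103 of 34945 probe sets and 49 of 18193 genes. Of the 49 genes, 4 are of the inducible type (Psmb8, Psmb9, Psmb10 and Psme1), 43 form the rest of the proteasome with its assembly chaperones, activators and inhibitor, called core genes below, and 2 matched the rule by name only. These were Psmc3ip, which encodes a recombination factor, and Psme3ip1, which encodes a protein that interacts with the activator PA28 gamma. The probe set for Psme2 carries a second symbol and was therefore not included. Each gene is represented by its brightest probe set, judged on log2 signals averaged over both arrays. Genes count as measured here if 1 or both signals reached the array median, which was 82.9 in the WT recipient and 91.5 in the Akita recipient. By this limit 47 of the 49 genes were measured, with both signals above the medians in all 47. The exceptions were Psmb11, the beta subunit of the thymus, with signals of 9.19 and 7.50, and Psma8, the alpha subunit of the testis, with 25.1 and 36.9 (here and below, the WT recipient comes first in each pair of signals).

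The core proteasome genes had nearly the same signals in both grafts. Of 41 measured core genes, 39 differed by no more than 1.5-fold, 0 were over 1.5-fold higher in the Akita recipient, and 2 were over 1.5-fold lower, Psmb7 and Psmd2. Their median log2 ratio (Akita over WT recipient) was -0.0041, compared to -0.061 over all 12538 measured genes. Among those 12538, the share past 1.5-fold was 13.7% upward and 14.4% downward. None of the 41 core genes was past 2-fold in either direction, compared to 7.56% higher and 5.54% lower among all measured genes. The interquartile range of the log2 ratios was 0.33 for the core genes and 0.65 for all measured genes. In bulk samples such as these, fewer cells of a type and less RNA per cell cannot be told apart.

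Most core genes had high signals, and ratios scatter less at high signals. Among the 3955 genes with both signals at or above 1000, 4.05% lay past 1.5-fold upward and 4.73% downward, and 1.19% lay past 2-fold upward and 0.228% downward. The core genes in this range numbered 34, of which 0 were over 1.5-fold higher, 2 were over 1.5-fold lower and 27 (79.4%) were within 1.25-fold, whereas 69.5% of all 3955 genes were within 1.25-fold. The share past 1.5-fold among the core genes was thus close to that of other bright genes.

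**Figure D1:**
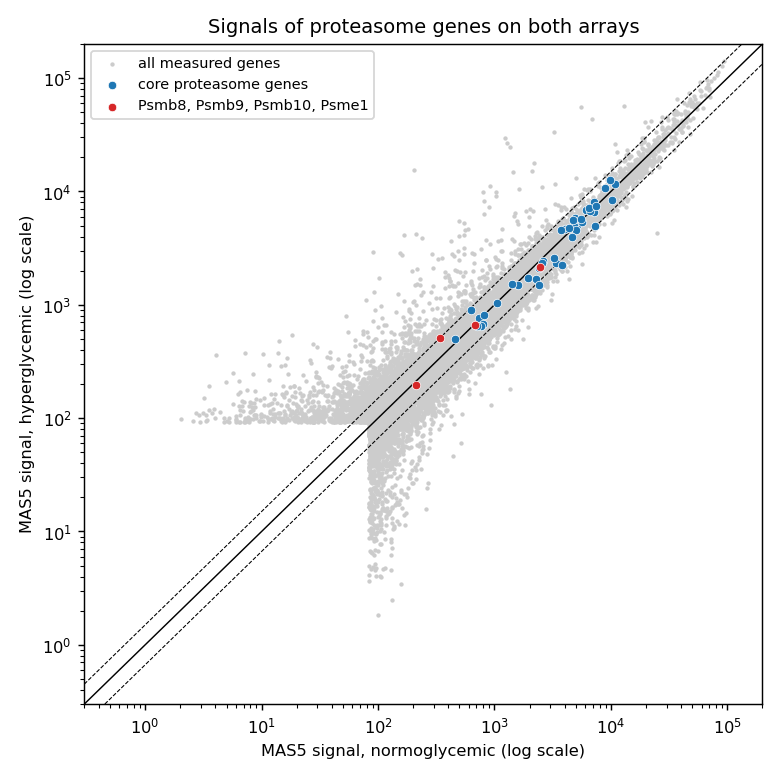
MAS5 signal in the WT recipient (x axis, log scale) and in the Akita recipient (y axis, log scale) for all 12538 measured genes (grey), the 41 measured core proteasome genes (blue) and the 4 inducible-type genes (red). The solid line marks equal signals and dashed lines 1.5-fold; of the core genes, 39 lie between the dashed lines.

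None of the 7 measured genes of the alpha ring was past 1.5-fold, a limit that few of the 3955 bright genes passed (4.05% upward, 4.73% downward). Their median log2 ratio was 0.13, and 6 of the 7 were above equality, as were 44.8% of all measured genes. With the arrays centred on their medians, an alternative chosen for the classes after the values had been seen, the median turned to -0.015 and 3 of the 7 were above equality. Centring lowered all measured genes as well, to a median of -0.20 with 33.6% above equality. Psma6 had signals of 9863 and 12536, a ratio of 1.27. Psma4 had signals of 4694 and 5559.8, and Psma7 was the 1 lower gene, with 4600.0 and 3984. The other alpha genes, Psma1, Psma2, Psma3 and Psma5, had log2 ratios of 0.13, 0.02, 0.10 and 0.14. The 3 probe sets of Psma6 with signals above the medians had log2 ratios from 0.20 to 0.41, whereas the 2 of Psma5 had opposite signs, -0.16 and 0.14.

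Of the beta subunits without a cutting site, Psmb1, Psmb2, Psmb3 and Psmb4, none was past 1.5-fold, and their log2 ratios lay between -0.27 and 0.06. Among all bright genes, 4.05% were past 1.5-fold upward and 4.73% downward. Psmb4 showed how far probe sets of a gene can differ, since both of its probe sets were bright and they went in opposite directions. Its brighter probe set had signals of 10148 and 8388, and the other 5635 and 7282.

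The 3 constitutive catalytic subunits did not move together. Psmb7, which encodes the trypsin-like subunit, had signals of 2404 and 1492, a 1.61-fold lower signal in the Akita recipient. Psmb6, the caspase-like subunit, had signals of 5663 and 5418. Psmb5, the chymotrypsin-like subunit, had signals of 8827 and 10652, a ratio of 1.21. Hence the Akita recipient was lower for Psmb7, while Psmb6 and Psmb5 were both within 1.25-fold. Each of these 3 genes has a single probe set on the array, so no second measurement of them could be compared.

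Of the inducible subunits, Psmb8 was higher in the Akita recipient, while Psmb9 and Psmb10 were near equal. Psmb8, which takes the place of Psmb5, had signals of 339 and 509.8, a log2 ratio of 0.59. This ratio of 1.502 was just past the limit of 1.5-fold. It was no longer past it when the arrays were centred on their medians, with a log2 ratio of 0.44. Among core genes, Psmg4 lay just inside the limit at 1.44-fold higher, and Psme4 and Psmc5 at 1.47-fold and 1.46-fold lower. Psmb9, which takes the place of Psmb6, had signals of 210.04 and 196, a log2 ratio of -0.10. Psmb10, which takes the place of Psmb7, had signals of 677 and 661, a log2 ratio of -0.03. Psme1, the PA28 alpha gene, had signals of 2483 and 2171, a log2 ratio of -0.19. Of the 4 inducible-type genes, 1 was higher and 3 were slightly lower in the Akita recipient, compared to 44.8% and 55.2% of all measured genes. The 1 higher gene, Psmb8, was also the only one past 1.5-fold upward, as were 13.7% of all measured genes. With 4 genes, no common direction is read from these counts.

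Their median log2 ratio was -0.07, which was 0.06 below the core median. Pairs of probe sets of the same gene, in which the dimmer had a mean signal of 256 to 1024, gave an SD of 0.33 for 1 log2 ratio (1776 pairs), and pairs with 64 to 256 gave 0.61 (2454 pairs). This is a technical spread within the arrays and not a replicate error. The log2 ratio of Psmb8, 0.59, exceeded the SD of its range, 0.33, which is not a test of the difference. Psmb8 has a second probe set, with signals of 15.2 and 70.4, both below the array medians, for which no fold is given.

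The balance between each inducible subunit and the one that it replaces was compared as a difference of log2 ratios, which needs no comparison of levels between probe sets. Psmb8 minus Psmb5 was 0.32, Psmb9 minus Psmb6 was -0.04, and Psmb10 minus Psmb7 was 0.66. In the last pair the difference arose from the lower Psmb7 signal, since Psmb10 was near equal. The SD of 1 log2 ratio was 0.33 in the signal range of Psmb10 and 0.22 in that of Psmb7, and this difference was not tested. The difference for Psmb8 and Psmb5 was within the SD of 0.33 found for a single log2 ratio in the signal range of Psmb8, and no direction is read from it or from Psmb9 and Psmb6.

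**Figure D2:**
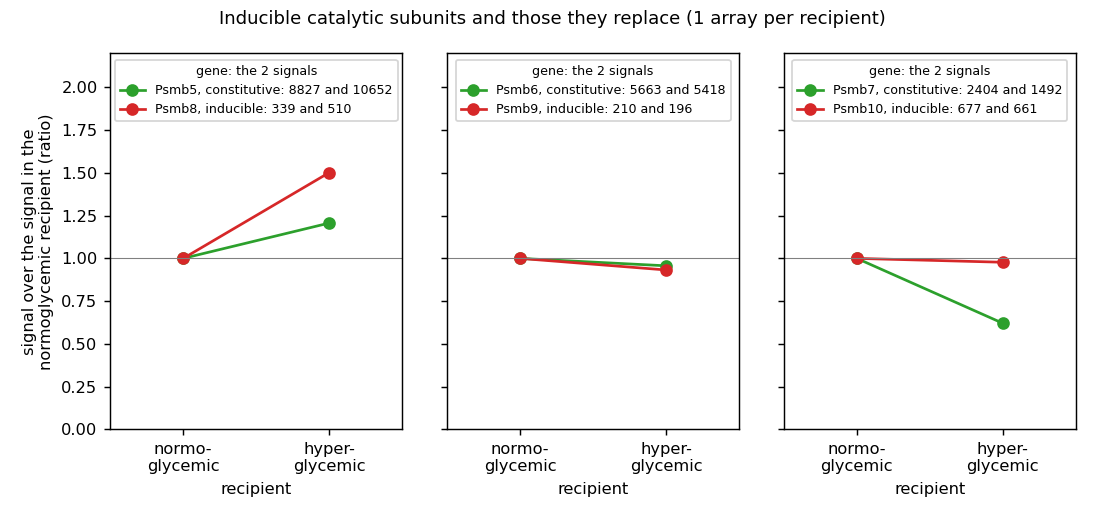
Signal of each catalytic subunit gene divided by its signal in the WT recipient (y axis, ratio; 1 array per recipient), for the 3 pairs of an inducible subunit (red) and the constitutive one that it replaces (green), with the signals themselves in the legends. Psmb8 ends at 1.502 and Psmb5 at 1.21, Psmb9 and Psmb6 stay near 1, and Psmb7 ends at 0.62 while Psmb10 ends at 0.98.

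The windows upstream of these genes were searched for motifs of regulators known for both classes. IRF factors bind interferon-stimulated response elements, and Nfe2l1, which raises the transcription of constitutive subunits when proteasome activity falls, binds antioxidant response elements. The 250 bases before the annotated start are shown from RefSeq (GRCm38.p6), 5′ to 3′ on the strand of the gene, for the inducible Psmb8 and Psmb9 and for Psmb5 and Psmb6, the subunits that they replace. Capitals mark matches, on either strand, to 3 motifs, namely GAAANNGAA (core of the interferon-stimulated response element), TGACNNNGC (core of the antioxidant response element) and CCAAT. No marked motifs overlap in these windows. They lie at chr17:34197945-34198194 (plus strand, Psmb8), chr17:34187331-34187580 (minus strand, Psmb9), chr14:54617996-54618245 (minus strand, Psmb5) and chr11:70525107-70525356 (plus strand, Psmb6).
Psmb8: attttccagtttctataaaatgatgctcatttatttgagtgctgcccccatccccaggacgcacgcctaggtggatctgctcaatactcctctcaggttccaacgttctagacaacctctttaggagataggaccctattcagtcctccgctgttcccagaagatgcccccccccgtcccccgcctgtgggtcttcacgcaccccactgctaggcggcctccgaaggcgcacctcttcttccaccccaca
Psmb9: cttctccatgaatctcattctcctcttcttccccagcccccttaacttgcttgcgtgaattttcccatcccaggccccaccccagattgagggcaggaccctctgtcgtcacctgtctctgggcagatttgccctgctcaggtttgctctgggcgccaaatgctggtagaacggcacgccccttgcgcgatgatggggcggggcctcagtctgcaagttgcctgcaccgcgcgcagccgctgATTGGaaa
Psmb5: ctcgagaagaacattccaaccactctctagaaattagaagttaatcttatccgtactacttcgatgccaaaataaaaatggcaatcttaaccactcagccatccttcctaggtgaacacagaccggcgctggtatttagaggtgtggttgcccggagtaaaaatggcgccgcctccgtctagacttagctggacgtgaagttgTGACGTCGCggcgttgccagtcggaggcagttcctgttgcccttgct
Psmb6: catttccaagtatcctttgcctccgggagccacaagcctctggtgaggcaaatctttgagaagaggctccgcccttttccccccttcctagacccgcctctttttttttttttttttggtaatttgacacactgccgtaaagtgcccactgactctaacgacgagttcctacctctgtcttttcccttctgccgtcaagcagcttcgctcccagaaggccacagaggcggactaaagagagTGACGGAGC

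The Psmb5 and Psmb6 windows hold a match to the antioxidant response element core and the Psmb9 window a CCAAT match, whereas the Psmb8 window holds none of the 3, which says only that these letters are not in it. Of the 49 genes, 41 had a promoter sequence in the RefSeq table. The interferon-stimulated response element core was found in 3 of these 41 (Psmb3, Psmd4 and Psmd9), compared to 8.18% of 27025 genes with a promoter sequence. The antioxidant response element core was found in 5 (Psmb5, Psmb6, Psmc6, Psmd12 and Psmd9), compared to 11.5%, and CCAAT in 16, compared to 37.5%. The promoters of the genes chosen by symbol thus held these letters about as often as promoters in general. Those with CCAAT include Psmc3ip and Psme3ip1, which matched the rule by name only. A match describes the sequence only and is not a site or a cause.

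Psmb8 and Psmb9 lie in the MHC region on both sides of Tap1, and Tap2 follows Psmb8, so 4 neighbouring genes of peptide production and transport could be compared. Tap1 and Tap2 encode the transporter that carries proteasome products into the endoplasmic reticulum. Tap1 had signals of 305 and 336, a log2 ratio of 0.14. Tap2 had signals of 473 and 267, a log2 ratio of -0.83. In the order along the chromosome, Psmb9, Tap1, Psmb8 and Tap2 had log2 ratios of -0.10, 0.14, 0.59 and -0.83. Those of Psmb9 and Tap1 were within the SD of 1 log2 ratio in their signal ranges (0.61 and 0.33), so no direction is read from them. Psmb8 was higher and Tap2 lower in the Akita recipient, which was not tested.

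The ATPases of the 19S particle, which unfold the substrate, had a median log2 ratio of 0.08, and none of the 6 was past 1.5-fold. Few bright genes were past it in general (4.05% upward, 4.73% downward). Psmc4 had signals of 4901 and 5858, and Psmc5 had 3401 and 2325, the highest and the lowest ratio of the ATPases. Psmc1, Psmc2, Psmc3 and Psmc6 had log2 ratios of -0.20, 0.17, -0.01 and 0.23. A dim probe set of Psmc6 had signals of 182 and 339 (log2 ratio 0.90), but its brighter probe sets, with 2536 and 3081 and with 3997 and 4691, had log2 ratios of 0.28 and 0.23.

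Of the 11 other subunits of the 19S particle, 1 was past 1.5-fold, Psmd2, compared to 4.05% upward and 4.73% downward among all bright genes. Their median log2 ratio was -0.11, and 8 of the 11 were below equality, among them Psmd7 with nearly equal signals, compared to 55.2% of all measured genes. Psmd2, which encodes a large scaffold subunit of the base, had signals of 3775 and 2228, which was 1.69-fold lower and the largest difference of any core gene. Its partner scaffold Psmd1 had signals of 4865 and 5000.0. The 2 scaffold genes therefore differed from each other in their ratio, although their products are found in the same complex. Psmd3, a lid subunit, had signals of 2259 and 1705, and Psmd4, a ubiquitin receptor, had 3228 and 2575. A second bright probe set of Psmd4 was also lower, at 1399 and 1002. Psmd14, the enzyme that removes ubiquitin from substrates, was the highest of the class, with signals of 3714 and 4588 (ratio 1.24), whereas its partner Psmd7 had 1041 and 1038. The remaining subunits Psmd6, Psmd8, Psmd11, Psmd12 and Psmd13 had log2 ratios of 0.17, -0.11, -0.14, -0.08 and -0.16.

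Activators other than PA28 alpha were near equal or lower. Psme3, the PA28 gamma gene, had signals of 810.0 and 812. Psme4, which encodes the activator PA200, had signals of 7237 and 4933 on its brightest probe set. Its other probe sets above the medians differed, with 4431 and 2753 (log2 ratio -0.69), 1049 and 1008 (-0.06), and 124 and 181 (0.54), the widest range of any member among such probe sets. Psmf1, the gene of the inhibitor PI31, had signals of 459.9 and 502, and its 4 probe sets ranged from -0.29 to 0.13.

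Assembly chaperones did not differ in a common direction. Psmg4, a chaperone of the 20S core, had signals of 628 and 903, the highest ratio of the core genes at 1.44. Psmg1, Psmg2 and Psmg3, of the same group, had log2 ratios of 0.11, -0.23 and -0.12. The chaperones of the 19S base, Psmd5, Psmd9 and Psmd10, had log2 ratios of -0.09, -0.23 and 0.07. The 2 genes that matched by name only, Psmc3ip and Psme3ip1, had signals of 216 and 240.3 and of 939.9 and 688.

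**Figure D3:**
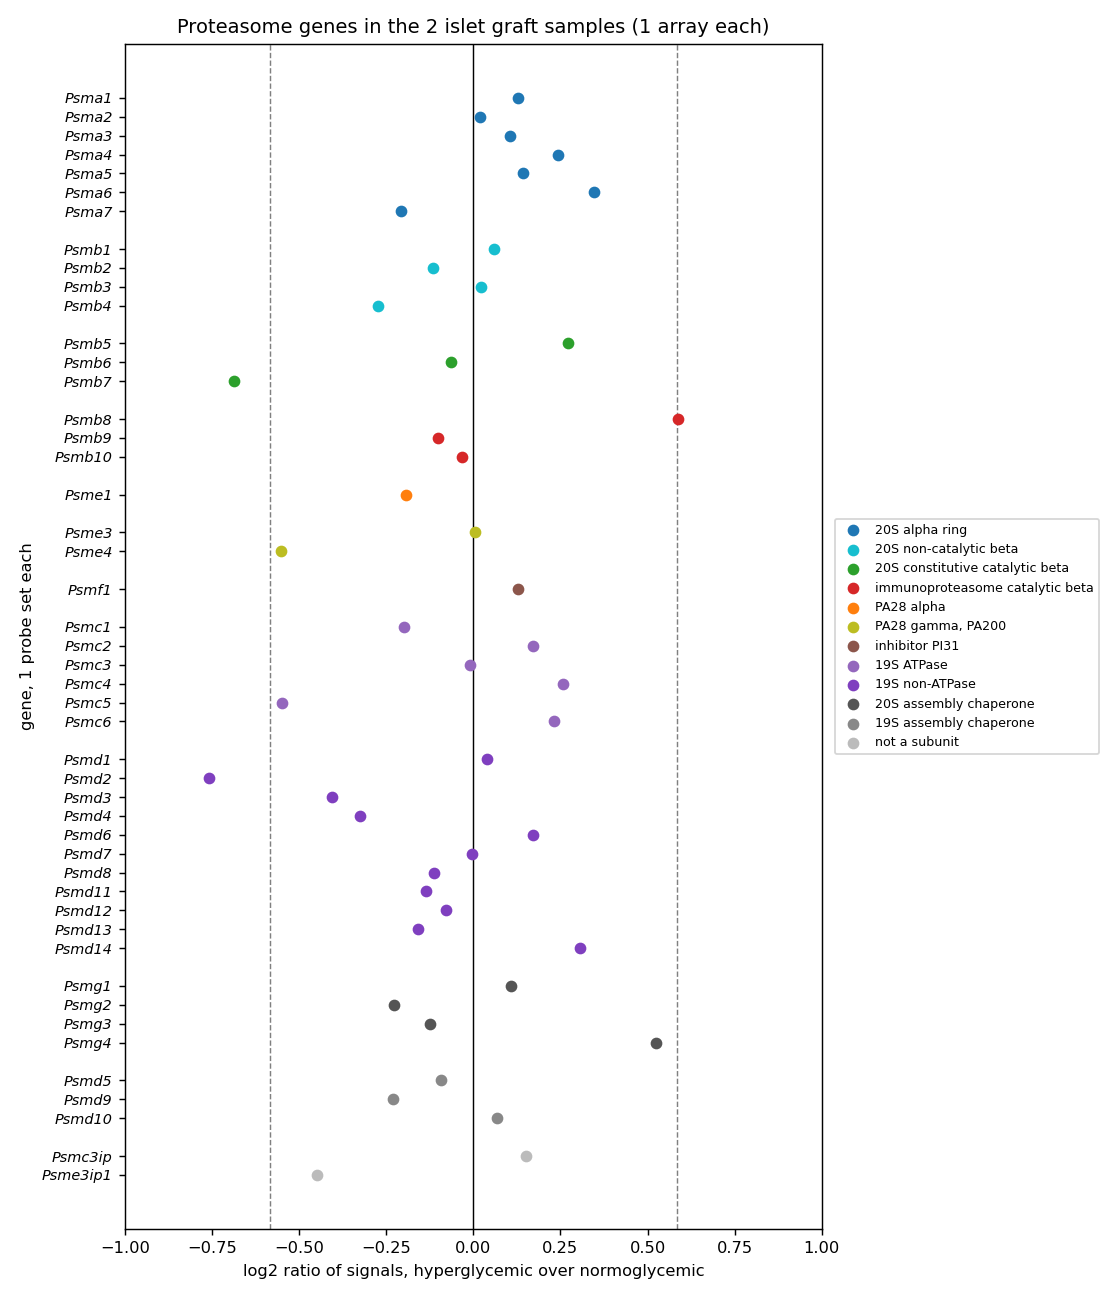
Log2 ratio of the signal in the Akita recipient divided by that in the WT recipient (x axis) for the 47 measured genes (y axis), 1 point per gene, coloured by class. Dashed lines mark 1.5-fold; Psmb7 and Psmd2 lie beyond the left line, Psmb8 on the right one.

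Over all probe sets of these genes, ratios spread more widely at low signals. Of 103 probe sets, 76 reached the median on both arrays. Of these 76, 2 were over 1.5-fold higher (Psmb8 and the dim one of Psmc6), 3 over 1.5-fold lower (Psmb7, Psmd2 and one of Psme4) and 0 past 2-fold. Counted by gene, 13.7% of all measured genes were over 1.5-fold higher and 14.4% lower, and 7.56% and 5.54% were past 2-fold. Of the 22 probe sets with both signals below the medians, 12 were over 2-fold apart, with log2 ratios from -4.05 to 4.23. The other 5, with 1 signal at or above its median, ranged from -2.17 (Psmd11) to 5.39 (Psme4). Shares over all probe sets of the arrays were not computed, so the counts of probe sets are not read as a trait of these genes. Of 19 genes with several probe sets above the medians, 11 had the same sign on all of them, and the median range of their log2 ratios was 0.20.

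**Figure D4:**
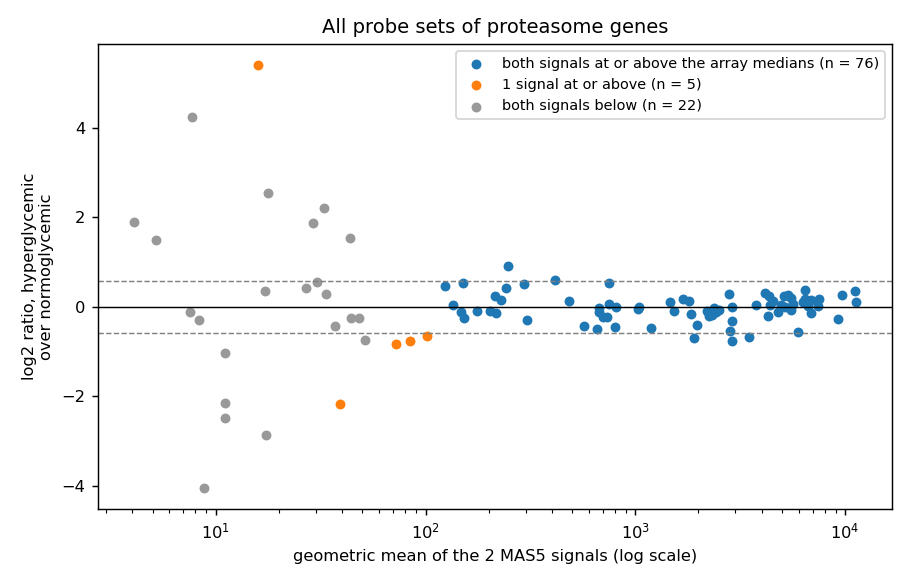
Log2 ratio (y axis) against the geometric mean of the MAS5 signals (x axis, log scale) for all 103 probe sets of the proteasome genes, 1 point per probe set, coloured by whether the signals reach the array medians. Dashed lines mark 1.5-fold. The 76 probe sets that reach the median on both arrays lie within 2-fold. The 22 with both below spread from -4.05 to 4.23, and the 5 with 1 signal at or above its median from -2.17 to 5.39.

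Genes that work with the proteasome had a median near equality but spread more widely than the core genes. Their interquartile range was 0.50 against 0.33, and 57.9% against 80.5% of genes were within 1.25-fold. Over all measured genes these values were 0.65 and 49.2%. Since ratios scatter less at high signals and the lists were not matched for signal, the spread is not read as a trait of either list. Of 19 measured partner genes, 1 was over 1.5-fold higher and 1 over 1.5-fold lower (median log2 ratio -0.02). Among all measured genes, 13.7% were over 1.5-fold higher and 14.4% lower. Pomp, the maturation factor of the core particle, had signals of 5589 and 5523. Nfe2l1 had signals of 1148 and 806. Ufd1, which helps to extract ubiquitinated proteins from complexes, was 1.55-fold higher, and Ubqln4, which carries such proteins to the proteasome, was 1.82-fold lower. Usp14, a deubiquitinase of the 19S particle, had signals of 511 and 723. Of 7 ubiquitin pathway genes, Ube2c, which serves the cell cycle, was 2.24-fold higher with its lower signal below the array median (65.4 and 147), and the other 6 were within 1.5-fold.

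Genes of MHC class I antigen processing and of the interferon response were compared as well, because they are known to be induced together with the immunoproteasome. Of 12 antigen processing genes, 0 were over 1.5-fold higher and 1 was over 1.5-fold lower, Tap2 (median log2 ratio 0.07). B2m, the light chain of MHC class I, had signals of 9865 and 13535, and Nlrc5, an activator of these genes, had 162 and 148. Of 18 measured interferon-induced genes, 2 passed 1.5-fold upward and 4 downward (13.7% and 14.4% of all measured genes did), with a median log2 ratio of -0.27. Cxcl10 had signals of 156 and 349 and Ube2l6 had 133 and 216, whereas Gbp6 had 326 and 143 and Ifit3 had 528 and 234. Irf1, which activates Psmb9 in response to interferon gamma, had signals of 804 and 607. The interferon genes thus spread to both sides of equality, with 12 of 18 below it, compared to 55.2% of all measured genes.

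Leukocyte markers were higher in the Akita recipient in all 10 genes, 9 of them over 1.5-fold, with a median log2 ratio of 2.07 and a summed signal of 5314 and 32702. The exception was Lcp1, with a log2 ratio of 0.52, which is smaller in size than those of Psmb8, Psmb7 and Psmd2. Ptprc, which encodes CD45, had signals of 631 and 1621, and Cd53 had 796 and 9800.3. All 12 macrophage markers were also higher (median log2 ratio 2.70, summed signal 11313 and 90583), such as Lyz2 at 5539 and 55987. No marker of either list was at 0. Leukocytes are known to use Psmb8, Psmb9 and Psmb10, and of these only Psmb8 was past 1.5-fold higher in the same sample. Of all measured genes, 13.7% were past that limit upward. The part of these cells in the values of the proteasome genes was not tested.

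The labelled tissue was also checked by its markers. Beta cell genes were present in both grafts, with Ins2 at 68738 and 88302 and, across 8 genes, a median of 0.51 in log2 ratio, with 4 of them over 1.5-fold higher and 3 lower within 1.5-fold, namely Slc2a2 (-0.19), Pdx1 (-0.41) and Nkx6-1 (-0.45). Kidney genes were present as well. Of 10 proximal tubule markers 5 were higher and 5 lower, all within 1.5-fold, from Kap at 89517 and 128500.0 (log2 ratio 0.52) to Miox at -0.57. These 10 showed a median of -0.04 on the log2 scale, the 7 for other nephron segments -0.59 and the 9 measured endothelial markers -0.74. RNA integrity was read from the 3′ over 5′ signal ratios of control probe sets, which were 3.54 and 3.99 for actin and 1.30 and 1.76 for Gapdh. Its part in the lower ratios of Psmb7 and Psmd2 was not tested.

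**Figure D5:**
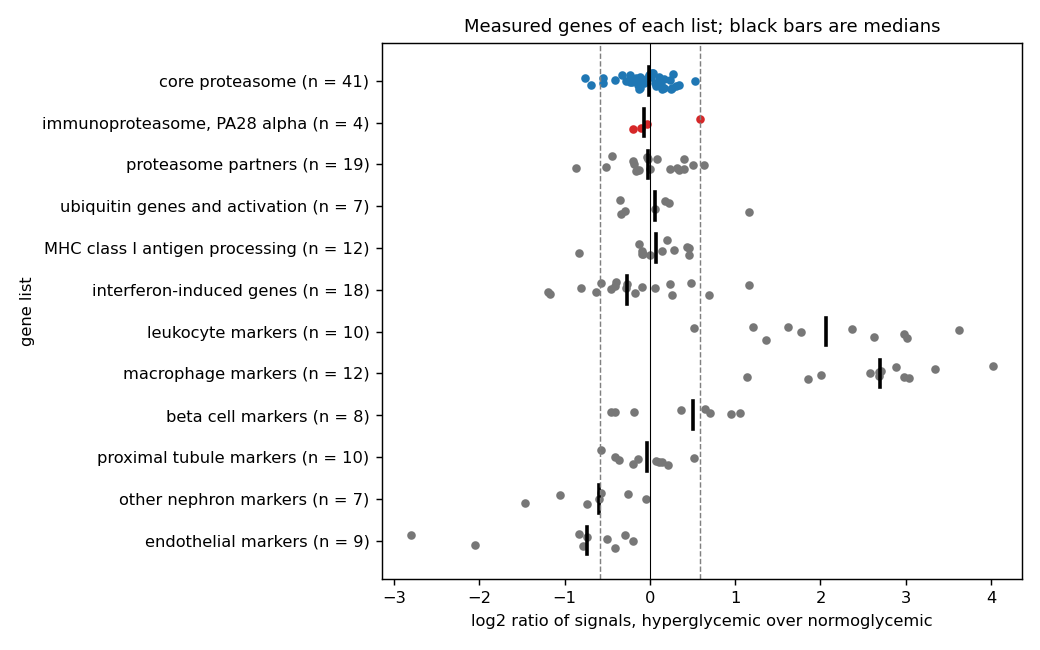
Log2 ratio (x axis) of each measured gene in the core proteasome, the inducible-type genes and 10 other gene lists (y axis), 1 point per gene, with black bars at the medians and dashed lines at 1.5-fold. The core proteasome (-0.0041) and the inducible-type genes (-0.07) lie near 0, leukocyte (2.07) and macrophage markers (2.70) to the right and endothelial markers (-0.74) to the left.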

How the data were processed

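RNA of 2 graft samples was measured on 1 MOE430 2.0 array each. The authors deposited signal intensities on a linear scale made with MAS5, with no version or settings stated in the sources read. The table held 45101 probe sets, 64 of them controls. Of the others, 34945 carried 1 gene symbol in the platform annotation, and only these were named. The ratio of the signals was taken as deposited, with its log2 for medians, and a level was never compared between probe sets. The genes and lists were chosen with earlier results of these data known. All genes that match the symbol rule are named. Genes named from the other lists were taken from those with the 3 highest and 3 lowest ratios and from a short list set with the design, and not all of these are printed. The limit of 1000 for bright genes was set after the core signals had been seen. The fold limit was 1.5, and the number of arrays limits the precision. The ratio code was tested on artificial data with known folds. Alternatives were other scalings, floors, probe set choices, filters and a 2-fold limit. Genes were matched to RefSeq promoters (GRCm38.p6) by symbol, and 1 motif is not reported here. Since the table names no build, coordinates are given for these sequences only. Calculations ran in pandas 2.3.3 and numpy 2.4.6 under Python 3.11.15, loess in statsmodels 0.14.6 and plots in matplotlib 3.10.9.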

Additional observations from a re-analysis of the deposited data

How the results depend on the processing

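The core median log2 ratio lay between -0.15 and 0.02 under 11 alternatives, the median of Psmb8, Psmb9, Psmb10 and Psme1 between -0.21 and -0.02 under 10, and the difference of these medians between -0.09 and -0.03. The number of core genes over 1.5-fold lower was 2 and became 4 with arrays centred on their medians, where the median of all measured genes moved from -0.06 to -0.20, and 4 without probe sets named _x_at, _s_at or _a_at. It was 0 at the 2-fold limit. The number over 1.5-fold higher was 0 and became 1 without those probe sets and with each gene taken as the median over its probe sets. The call of Psmb8 as over 1.5-fold higher was lost (0 of these genes) with arrays centred on their medians, with the array median added to both signals, without those probe sets, where Psmb8 was no longer measured, and at the 2-fold limit. The log2 ratio of Psmb8 was 1.40 with the median of its probe sets, the second of which is below both array medians, and 0.44 at the lowest. Where another probe set of a gene was taken, the change follows from that choice, and for the remaining alternatives the cause was not tested. No paired analysis was possible because each group has 1 array.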
